A study of Mus musculus with 16 samples.

Results

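The module described here comprised 35 mouse genes that respond to, or belong to, the amino acid branch of the integrated stress response. It was fixed by gene name as 6 regulators, 5 enzymes of serine synthesis and folate-linked one-carbon metabolism, 5 enzymes of asparagine, proline and cysteine synthesis, 6 amino acid transporters and 13 cytosolic aminoacyl-tRNA synthetases. All 35 were found among the 20325 gene names of the series, and in each of its 13 RNA libraries.

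The study asked how the AP-1 subunit c-Jun moves embryonic stem cells (ESC) away from pluripotency and blocks the reprogramming of embryonic fibroblasts (MEF), and how its dominant-negative form c-JunDN and the repressor Jdp2 can stand in for Oct4. All cells carried the OG2 transgene on a mixed background of 129SVJ, C57B6 and CBA. The 3 ESC libraries, at the fifth passage, were wild type (WT) and a Tet-On c-Jun line kept 36 h with doxycycline or without it. Of MEF there were 6 libraries, at the second passage: WT cells and cells over-expressing DR, c-Jun, c-JunDN, Jdp2 or Oct4. The 4 libraries called KSM were MEF given Klf4, Sox2 and c-Myc together with DR, Oct4, c-JunDN or Jdp2 and taken on day 3. DR is not spelled out in the labels and was used here as the matched control of the other vectors. The time of the MEF libraries after transduction, the sorting of cells and the number of clones of the Tet-On line are not given in the sources used here.

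As background, ATF4 is a basic leucine zipper factor whose protein is made preferentially when the initiation factor eIF2 is phosphorylated, for instance by the kinase that senses uncharged tRNA or by the one that senses unfolded protein in the endoplasmic reticulum. Its mRNA level therefore does not report its protein level, and the state of the pathway is usually read from its target genes. ATF4 binds the composite CEBP-ATF response element, often as a dimer with CEBP proteins, and its targets restore amino acid supply: they make serine, glycine, asparagine, proline and cysteine, import amino acids and charge them onto tRNA. ATF4, c-Jun and Jdp2 belong to the same leucine zipper superfamily.

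Each group had 1 library, so no difference has a replicate check and no test across samples could be made. Levels are TMM-scaled CPM, that is, counts relative to the scaled total of their library. A difference is the log2 ratio of CPM plus 1, and a fold is given with the exact conditional binomial 95% interval of the ratio of 2 counts, which covers counting error only. Genes under 5 CPM in both libraries were set aside as not measured. The others were called higher or lower where CPM plus 1 differed by 2-fold. The share of all measured genes called the same way is printed beside the members' count for each comparison at these settings. How often all genes had their highest or lowest level in a given library was not counted. In bulk RNA, fewer cells of a kind and less RNA per cell cannot be told apart.

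The WT libraries were the deepest, with 12173140 expected counts for ESC and 21415028 for MEF, and the totals were between 1896522 and 3440958 in the other 11 libraries, so that a count of 3 stood for 0.183 to 1.5 CPM. The introduced genes matched the labels. In ESC, Jun went from 21.2 CPM uninduced to 2015 CPM induced, and in MEF it went from 88.5 CPM (DR) to 11965 CPM (c-Jun) and 3968 CPM (c-JunDN). Jdp2 and Pou5f1, the gene of Oct4, stood at 7226 and 9724 CPM in the MEF libraries named for them. The 7 ESC markers summed to 4875 and 5833 CPM in the WT and uninduced ESC libraries, and the 8 fibroblast markers to between 10691 and 53128 CPM in the 6 MEF libraries. The MEF Oct4 library was quantified by the authors on another annotation (Ensembl genes), so part of any difference from DR may be one of annotation, and the 2 cannot be told apart.

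The members differed widely in level and in how much they varied. Per transcript length, over the 13 libraries, the serine synthesis gene Psat1 had the highest median of the module (327 TPM), followed by the glycyl-tRNA synthetase gene Gars (294 TPM), Atf4 (288 TPM) and the serine synthesis gene Phgdh (287 TPM). The lowest medians belonged to Cbs, the first enzyme of the route from homocysteine to cysteine (6.69 TPM), and to Slc7a11, which encodes the light chain of the cystine-glutamate exchanger (8.27 TPM). The synthetase genes sat between 79.5 TPM (Cars) and 294 TPM (Gars).

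The highest level exceeded the lowest by 1.76-fold for Slc3a2, the heavy chain shared by several amino acid exchangers, and by 1.89-fold for Wars, the tryptophanyl-tRNA synthetase gene. For the 13 synthetases this spread was between 1.89-fold and 4.45-fold (Vars). Among the regulators Trib3 ran from 0.36 TPM, a single count, to 75.2 TPM, and the spread was 65.9-fold for Chac1, 30.1-fold for Atf5 and 19.8-fold for Ddit3, while Atf4 itself spanned 2.66-fold and Sesn2 2.28-fold. The lowest level of Chac1, 0.85 TPM in KSM with c-JunDN, was only 0.628 CPM. Outside the regulators, the widest ranges were those of the transsulfuration genes Cbs (94.6-fold) and Cth (47.7-fold) and of Slc7a11 (37.5-fold). Atf4, Slc7a11, Eprs, Lars and Tars had their lowest TPM in the MEF Oct4 library, which was quantified on the other annotation. Part of their spread may thus be one of annotation.

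Some members held the CEBP-ATF element near their start. Since the members were chosen as genes linked to ATF4, which binds it, this is a description and not independent of the choice. In RefSeq promoter windows of GRCm38.p6, from 250 bases before to 50 bases after a start site, 27 of the 35 members had an entry. The core of the CEBP-ATF response element, searched as TGATGNAA on both strands, was in 11 of these 27 (40.7%), against 4.51% of the 27025 genes of the table. The AP-1 motif TGANTCA was in 2 of 27 (7.41%), Ddit3 and Slc7a1, against 8.97% of all genes, and the palindrome TGACGTCA, to which CREB and ATF dimers bind, was in none, against 2.03%. The 11 genes with the core were Trib3, Chac1, Asns, Pycr1, Slc7a11, Slc1a4, Aars, Gars, Iars, Tars and Yars. They held 13 matches, of which 12 began within 120 bases of the start. A match is a run of letters and not a shown binding site. The stretches below are those of some members whose values are described later, in gene orientation and 5′ to 3′, with the motif in capitals and positions counted from the start site as base 1, with no base 0. A motif on the opposite strand is printed as its reverse complement.
Trib3 (bases 15 to 22, chr2:152344029-152344056, minus strand): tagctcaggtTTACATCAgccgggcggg
Chac1 (bases -193 to -186, chr2:119351039-119351066, plus strand): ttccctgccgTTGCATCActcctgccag
Asns (bases -23 to -16, chr6:7693215-7693242, minus strand): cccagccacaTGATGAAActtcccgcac
Pycr1 (bases -103 to -96, chr11:120643834-120643861, minus strand): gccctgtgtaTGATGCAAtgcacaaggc
Slc1a4 (bases -4 to 4, chr11:20332700-20332727, minus strand): gcctcctgcgTTGCATCAtctccagcct
Gars (bases -30 to -23, chr6:55037961-55037988, plus strand): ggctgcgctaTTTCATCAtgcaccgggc
Tars (bases -15 to -8, chr15:11399656-11399683, minus strand): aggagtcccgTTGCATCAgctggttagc
Ddit3 (bases -242 to -236, chr10:127290543-127290567, plus strand): cgcgcgcaTGACTCActcacctcct
Slc7a1 (bases -123 to -117, chr5:148400011-148400037, minus strand): ccatcagctcTGACTCAagctcagttg
The first 7 stretches show the CEBP-ATF core and the last 2 the AP-1 motif. The core lies at varied distances and on either strand, and that of Slc1a4 spans the start site.

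Slc7a11 and Aars each held 2 matches in the window, those of Aars beginning at bases -112 and 10. The Slc7a11 upstream region (chr3:50443614-50443863, minus strand, 250 bases ending at the base before the start) is printed because its 2 matches, which begin at bases -66 and -47, lie on opposite strands, and because this gene was lower in more comparisons than any other member.
Slc7a11: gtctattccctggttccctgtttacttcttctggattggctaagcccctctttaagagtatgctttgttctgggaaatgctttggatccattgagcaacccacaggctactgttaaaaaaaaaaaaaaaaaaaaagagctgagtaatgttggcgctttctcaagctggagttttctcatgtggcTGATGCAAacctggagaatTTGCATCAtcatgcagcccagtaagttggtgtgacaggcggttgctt
Changes of members with and without the core were set side by side. With c-Jun in ESC the median log2 change was -1.13 over the 11 with it and -1.23 over the 16 without, and with Jdp2 in MEF it was -0.66 over the 11 and -0.61 over the 15 measured without. In DR against WT MEF, described below, it was -0.85 over the 11 and -0.28 over the 15. Whether these medians differ was not tested.

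Against the matched control, members were called lower more often than higher, and most of these calls came from ESC. Over 8 comparisons of a factor with its control, 45 of 268 measured values of members were lower (16.8%) and 4 higher (1.49%), against 7.21% and 7.42% over all genes. The ESC comparison gave 24 of the 45. Without it, 9.01% of 233 values were lower and 1.72% higher, against 5.5% and 5.38% over all genes. Of the 35 members, 29 were lower at least once, and 2, Cth and Cbs, were higher at least once. The 6 that were called in none were Atf4, Asns, Slc3a2, Nars, Sars and Wars. Slc7a11 was lower in 4 of the 8, and Atf5, Aldh18a1 and Slc1a5 in 3. How many of all genes were called at least once over the 8 was not counted, so these counts per member stand without a background. The 4 MEF comparisons share the DR library and the 3 KSM comparisons share KSM with DR, so their values are given side by side and are not independent of each other.

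**Figure D1:**
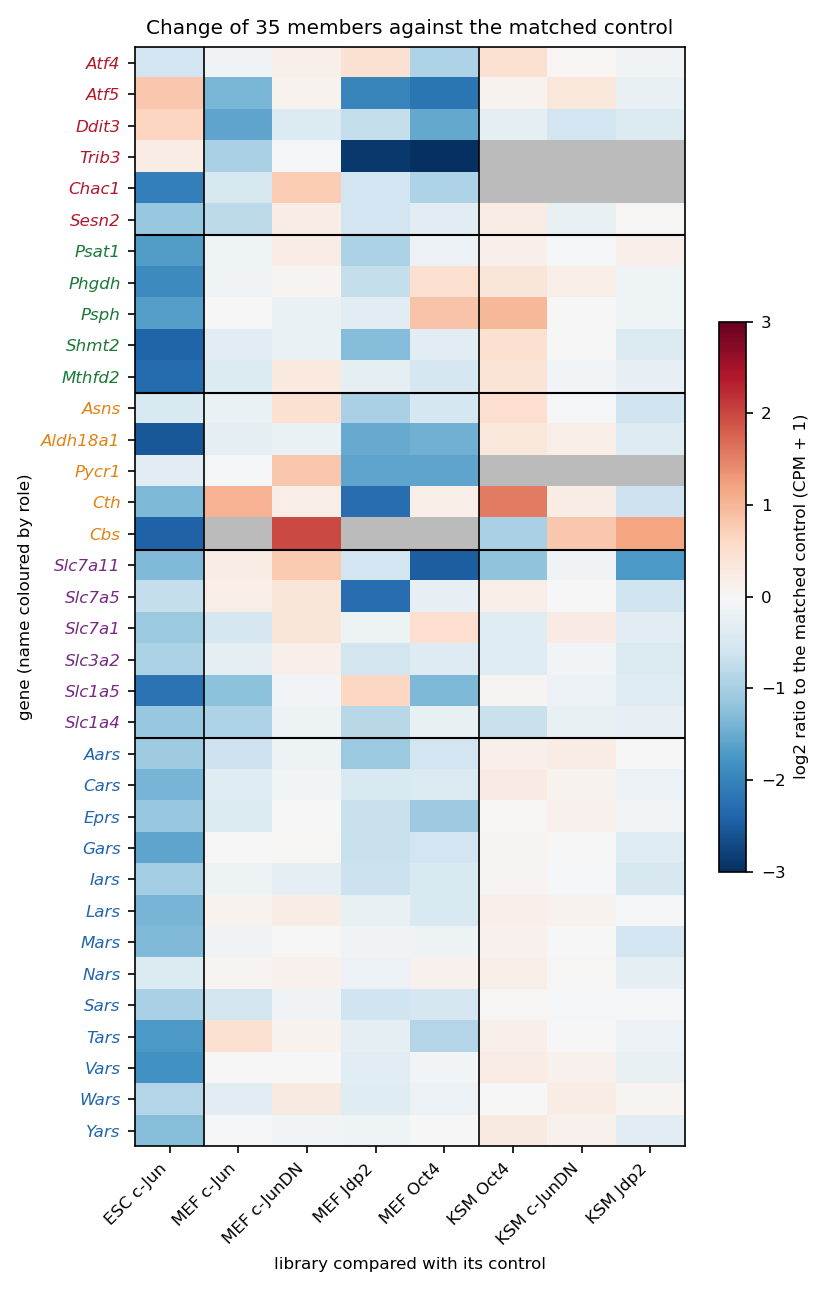
Log2 ratio (CPM plus 1) of each of the 35 members (rows, name coloured by role, in the order regulators, serine and one-carbon, asparagine to transsulfuration, transporters, synthetases) in 8 comparisons of a factor library with its control (columns); grey marks a gene under 5 CPM in both libraries and the colour scale stops at 3 in either direction. The ESC column is blue for 32 of 35 rows, the MEF Jdp2 and Oct4 columns are blue with their darkest cells in Trib3, and the KSM c-JunDN column is nearly white.

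Induction of c-Jun in ESC went with the broadest drop of the module. With doxycycline, the 35 members summed to 3668 CPM, against 8292 CPM without and 7598 CPM in WT ESC. Of the 35, 24 were lower and none was higher, where 18.9% of 11133 measured genes were lower and 21.5% higher. The median log2 change of the members was -1.28, against -0.07 over all measured genes. Below 0 were 32 of 35 members, against 5864 of 11133 genes. Of the 35 members, 32 had their lowest ESC level in the induced library, a count that was not made over all genes. Doxycycline was given only to that library, so the drug and c-Jun cannot be told apart.

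The regulators did not move together. Chac1, which encodes an enzyme that degrades glutathione, was at 8.55 CPM in WT ESC, 14.5 CPM uninduced and 2.71 CPM induced, and was 5.33-fold lower (2.41 to 13.4). Sesn2, a leucine sensor that restrains mTORC1, was at 137, 174 and 78.6 CPM in the same order, and was 2.21-fold lower (1.88 to 2.62). These 2 fell, and the other 4 passed no threshold. Atf4 was at 247, 288 and 194 CPM (log2 -0.57). Ddit3, the gene of the stress factor CHOP, was at 9.62, 8.58 and 13.9 CPM (log2 0.64). Its induced library was the highest of the 3, as for Atf5, a relative of ATF4 (log2 0.81), and for Trib3, a pseudokinase that restrains ATF4 (log2 0.23).

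All 5 serine and one-carbon genes fell, with a median log2 change of -1.91. Phgdh, the first enzyme of serine synthesis, was at 221 CPM in WT ESC, 255 CPM uninduced and 67.4 CPM induced, and was 3.79-fold lower (3.21 to 4.47). Shmt2, which splits serine into glycine and a one-carbon unit in mitochondria, was at 210.0, 319 and 59.3 CPM, and was 5.37-fold lower (4.54 to 6.37). Mthfd2, the next mitochondrial folate enzyme, was at 99.1, 126 and 24.7 CPM, and was 5.08-fold lower (3.91 to 6.66). In each of these genes both uninduced libraries lay well above the induced one. Psat1 and Psph, the middle and last steps of serine synthesis, changed by log2 -1.67 and -1.65. Other one-carbon genes fell as well, 7 of 8 measured (of 10 listed; median -1.68), led by the glycine decarboxylase gene Gldc (log2 -3.44), the cytosolic Shmt1 (-2.68) and the mitochondrial Mthfd1l (-2.30).

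Of the 5 genes of asparagine, proline and cysteine synthesis, 3 fell. Aldh18a1, which starts proline synthesis, was at 87.2 CPM in WT ESC, 121 CPM uninduced and 19.995 CPM induced, and was 6.06-fold lower (4.55 to 8.17). Cbs was at 44.8, 41.1 and 6.78 CPM, and was 6.07-fold lower (3.71 to 10.4). Cth, which completes the route to cysteine, changed by log2 -1.35. Asns, the asparagine synthetase gene and a standard readout of ATF4, stood at 726 CPM in WT ESC, 421 CPM uninduced and 305 CPM induced (log2 -0.46), and passed 2-fold only against WT ESC (log2 -1.25). Pycr1, the last step of proline synthesis, differed by log2 -0.33, and its interval included no change.

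Of the 6 transporters, 4 fell, and all 6 were below 0. Slc1a5, an importer of glutamine and other neutral amino acids, was at 151 CPM in WT ESC, 143 CPM uninduced and 29.8 CPM induced, and was 4.79-fold lower (3.77 to 6.13). Slc7a11 (-1.32), the cationic amino acid importer Slc7a1 (-1.12) and the neutral amino acid carrier Slc1a4 (-1.13) also fell. Slc7a5, the light chain of the large neutral amino acid exchanger (-0.71), and its heavy chain Slc3a2 (-0.95) stayed under the threshold.

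Of the 13 synthetases, 10 fell, with a median log2 change of -1.28, and all 13 were below 0 with intervals that left out no change. The valyl gene Vars went from 497 CPM to 141 CPM (335 CPM in WT ESC) and was 3.52-fold lower (3.14 to 3.95). The threonyl gene Tars (-1.72) and the glycyl gene Gars (-1.59) followed, then the leucyl gene Lars (-1.40), the cysteinyl gene Cars (-1.39), the methionyl gene Mars (-1.33), the tyrosyl gene Yars (-1.28), the glutamyl-prolyl gene Eprs (-1.14), the alanyl gene Aars (-1.06) and the isoleucyl gene Iars (-1.05). The 3 that stayed under the threshold were the seryl gene Sars, at 259 CPM uninduced and 132 CPM induced (-0.97), the tryptophanyl gene Wars, at 137 and 74.2 CPM (-0.88), and the asparaginyl gene Nars, at 418 and 316 CPM (-0.40). No synthetase of the module was higher in the induced library. Synthetase genes outside the module had smaller median differences in the same direction. The 10 other cytosolic synthetases and scaffolds had a median of -0.80 with 4 lower, among them the scaffold-linked Eef1e1 (-1.47), the phenylalanyl subunit Farsb (-1.36) and the lysyl gene Kars (-1.05). The 17 mitochondrial synthetases had a median of -0.93 with 7 lower, among them Ears2 (-1.78) and Yars2 (-1.37). The difference between these lists was not tested.

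Other lists of the stress response were described beside the module, with no test of the difference. Among 21 kinase, phosphatase and further ATF4-linked genes, 19 were measured, 6 were higher and 5 lower (median 0.10). The dimer partner gene Cebpb (log2 4.36) and the mTORC1 inhibitor gene Ddit4 (2.82) rose, and the cationic amino acid transporter gene Slc7a3 fell (-3.63). Of 15 endoplasmic reticulum chaperones and unfolded protein response targets, 3 were higher and none lower (median 0.60), namely Sel1l (1.75), Dnajc3 (1.68) and Edem1 (1.18). The chaperone rise did not hold against WT ESC, where none of the chaperones was higher and 1 was lower (median -0.03). The ATF4-linked list was mixed there too, with 5 higher and 7 lower (median -0.22). Its 3 named genes kept their direction. Cebpb was at 2.85 CPM in WT ESC and 28.8 CPM induced, Ddit4 at 71.4 and 378 CPM, and Slc7a3 at 72.7 and 25.4 CPM. In the uninduced line itself, 4 chaperones were lower than in WT ESC (median -0.46). The induced library also differed in cell markers. All 7 ESC markers fell, their sum going from 5833 to 1177 CPM, and the fibroblast sum went from 24.8 to 502 CPM (1199.6 CPM in WT ESC), of which Col1a1 made up 471 CPM, with Lum and Twist2 at 0 in the induced library. The macrophage sum went from 11.3 to 111 CPM through Cd68 and Csf1r, the other 6 being at 0. The part of these shifts in the members' change was not tested.

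The direction held against both controls, while the number of calls moved with the scale. Against WT ESC, 21 members were lower, 20 of them among the 24, and 1, Atf5, was higher (median -1.24), where 22.6% of all measured genes were lower and 14.6% higher. On the authors' TPM scale, the median of all measured genes shifted by 0.36, 14 members were lower and 2, Atf5 and Ddit3, were higher, where 10.4% of all measured genes were lower and 27.6% higher. The regulators' median then changed sign, from -0.17 to 0.20. Relative to all measured genes, the members' median was -1.21 on the main scale, -1.20 with DESeq2 size factors and -1.15 on the TPM scale.

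**Figure D2:**
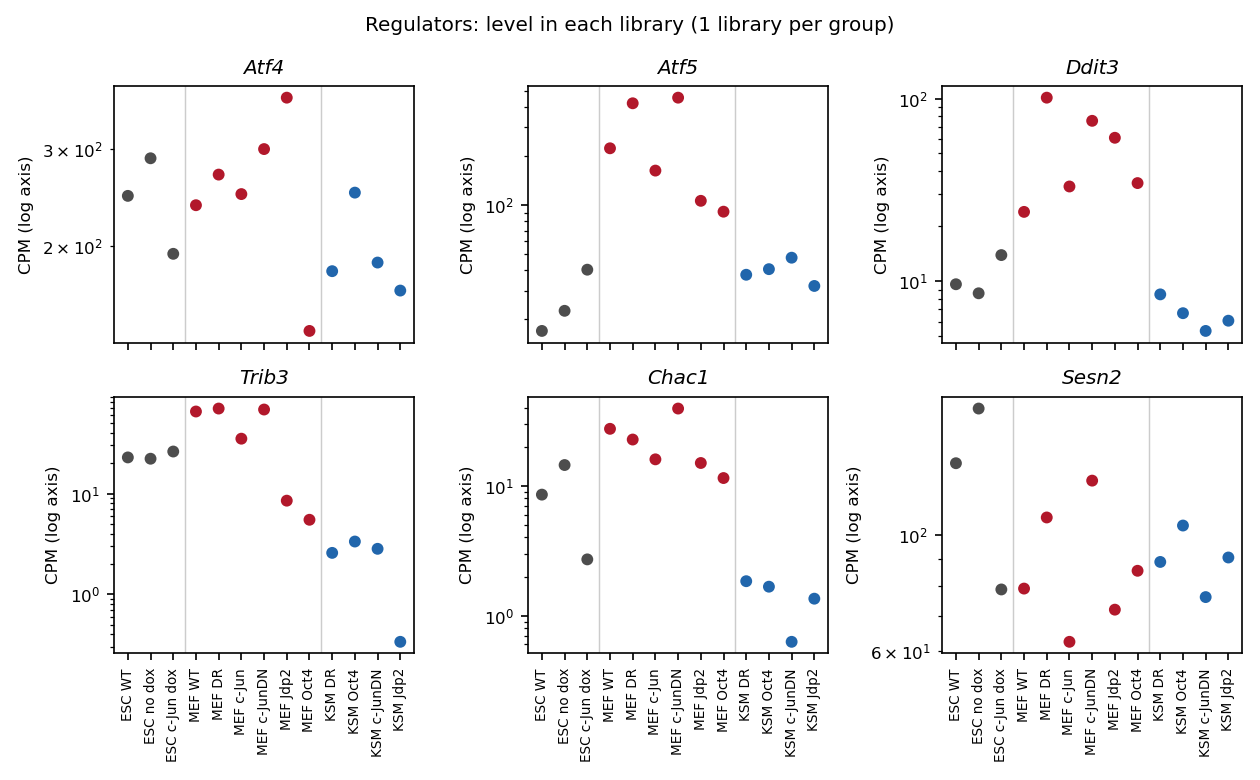
Level of the 6 regulator genes (CPM on a log axis whose range differs by gene) in the 13 libraries, 1 point a library, with ESC in grey, MEF in red and KSM in blue. Atf5, Ddit3 and Trib3 lie lowest in KSM or ESC and highest in MEF with DR or c-JunDN, while Atf4 spans a narrow range with its highest point in MEF with Jdp2 and its lowest in MEF with Oct4.

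In fibroblasts, forced c-Jun left most members near the DR level. Of 34 measured members, 3 were lower and 1 higher, where 9.54% of 11114 measured genes were lower and 7.75% higher, so that the share of members called was near the background. The median was -0.23, against 0.01 over all genes. The 2 regulators that fell were Ddit3, at 23.95 CPM in WT MEF, 101 CPM with DR and 32.99 CPM with c-Jun (3.06-fold lower, interval 2.31 to 4.104), and Atf5, at 223, 421 and 163 CPM (2.58-fold lower, interval 2.27 to 2.94). In both genes the DR library was the highest of the 3. All 6 regulators were below 0 against DR, with Atf4 at 237, 269 and 248 CPM (log2 -0.12).

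Slc1a5 also fell, from 52.7 to 21.99 CPM (2.397-fold lower, interval 1.67 to 3.48), and Cth rose from 15.96 to 33.99 CPM (2.13-fold higher, interval 1.39 to 3.33). Cbs was not measured, with 1.45 and 4.499 CPM. Asns was at 275, 120.4 and 105 CPM in WT, DR and c-Jun cells, and none of the 13 synthetases or 5 serine and one-carbon genes passed 2-fold. None of the 4 calls was made against WT MEF, where 10 other members were lower, none was higher and the median was -0.80, and where 13.7% of all measured genes were lower and 11.0% higher. Ddit3 was then above its control, at log2 0.45. Fibroblast markers were lower with c-Jun, 5 of 8 past 2-fold, and their sum went from 30098 to 12822 CPM with none at 0. Macrophage markers summed to 82.5 CPM with c-Jun and 22.2 CPM with DR. Csf1r, the 1 measured of 8, made up 72.98 CPM of the c-Jun sum. Over all 8 listed, the median log2 change was -0.97. The part of either list in these values was not tested.

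The dominant-negative form had the fewest calls of the 4 MEF factors, among the members and over all measured genes alike. The share of members called was near the background. Of 35 measured members, 1 was higher and none lower, where 3.25% of 11030 genes were higher and 2.71% lower, and the median was 0.11 against 0.01. Cbs rose from 1.45 CPM with DR, 3 counts, to 8.62 CPM (5.94-fold higher, interval 1.77 to 31.1). Pycr1 (21.3 and 38.2 CPM, log2 0.81), Slc7a11 (18.4 and 32.4 CPM, 0.79) and Chac1 (22.7 and 39.4 CPM, 0.77) came next. Their counting intervals left out no change, but none reached 2-fold. Atf4, Ddit3 and Asns were at 299, 75.5 and 165 CPM (log2 0.15, -0.42 and 0.45). The 13 synthetases had a median of 0.01. Macrophage markers were higher in this library, 5 of 7 measured, with a sum of 62.8 CPM against 22.2 CPM with DR and none at 0. Their part in these values was not tested. Against WT MEF, 4 members were higher and 6 lower (median -0.65), where 10.6% of all measured genes were higher and 10.9% lower.

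With Jdp2 in fibroblasts, members of each role fell. Of 34 measured members, 8 fell and none rose, where 6.32% of 11080 genes were lower and 5.81% higher. The median was -0.59, against -0.003 over all genes, and 32 of 34 were below 0, against 5562 of 11080 genes. The members summed to 3563 CPM with Jdp2, 5564 CPM with DR and 8917 CPM in WT MEF. Of the 35 members, 18 had their lowest level of the 6 MEF libraries with Jdp2, a count that was not made over all genes.

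Atf4 did not fall with Jdp2. It was at 237 CPM in WT MEF, 269 CPM with DR and 371 CPM with Jdp2, the highest MEF level of this gene, though under 2-fold from DR (log2 0.46). Trib3 was at 65.1, 69.6 and 8.49 CPM in the same order and was 8.198-fold lower (4.95 to 14.5). Atf5 was at 223, 421 and 106 CPM and was 3.95-fold lower (3.399 to 4.61). Trib3 and Atf5 with Jdp2 thus lay below both controls, whereas Ddit3, at 60.96 CPM, lay between WT and DR (log2 -0.72 from DR).

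Of the serine and one-carbon genes, Shmt2 fell from 109 to 43.5 CPM (2.51-fold lower, interval 1.96 to 3.26), and all 5 were below 0 (median -0.72). Of the 4 measured genes of asparagine, proline and cysteine synthesis, 3 fell. These were Aldh18a1, from 174 to 60.5 CPM (2.87-fold lower, interval 2.33 to 3.56), Pycr1, from 21.3 to 6.495 CPM (3.28-fold lower, interval 1.73 to 6.63), and Cth, from 15.96 to 2.498 CPM (6.39-fold lower, interval 2.48 to 20.96). Both ends of the proline route were therefore lower. Asns was at 275 CPM in WT MEF, 120.4 CPM with DR and 60.5 CPM with Jdp2, just inside the 2-fold line (log2 -0.98). Cbs was at 1.45 CPM with DR and 4.997 CPM with Jdp2, just under the minimum of 5 CPM, and so was not measured. It was called higher with DESeq2 size factors and without the minimum.

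Slc7a5 was the transporter that fell. It was at 393 CPM in WT MEF, 192 CPM with DR and 38.5 CPM with Jdp2, 5.003-fold lower (3.91 to 6.47), and the other 5 MEF libraries held at least 163 CPM. Its heavy chain Slc3a2 was at 189 and 129 CPM (log2 -0.54). Slc1a5 was, beside Atf4, the other measured member above its DR level, at 52.7 and 81.9 CPM (log2 0.63). Among the synthetases Aars fell, from 493 to 229 CPM (2.153-fold lower, interval 1.93 to 2.41). All 13 were below 0 (median -0.37), and 9 had their lowest MEF level with Jdp2. Of the 10 other cytosolic synthetases and scaffolds, 5 were below 0 (median 0.01), and of the 17 mitochondrial ones 7 (median 0.04), though the difference between the lists was not tested. Further ATF4-linked genes were mostly below 0, 15 of 19 measured, with 5 lower and 1 higher, and the largest changes were in Slc7a3 (-1.80), Cebpb (-1.56) and the growth arrest gene Gadd45a (-1.42). Of the 15 chaperones none passed 2-fold (median -0.13). Against WT MEF, 23 members were lower, including all 8, and 2, Ddit3 and Slc1a5, were higher (median -1.28), where 14.5% of all measured genes were lower and 11.9% higher. Fibroblast markers summed to 23498 CPM with Jdp2 and 30098 CPM with DR, 2 of 8 being lower and none at 0. Macrophage markers summed to 15.5 and 22.2 CPM. The part of either list was not tested.

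**Figure D3:**
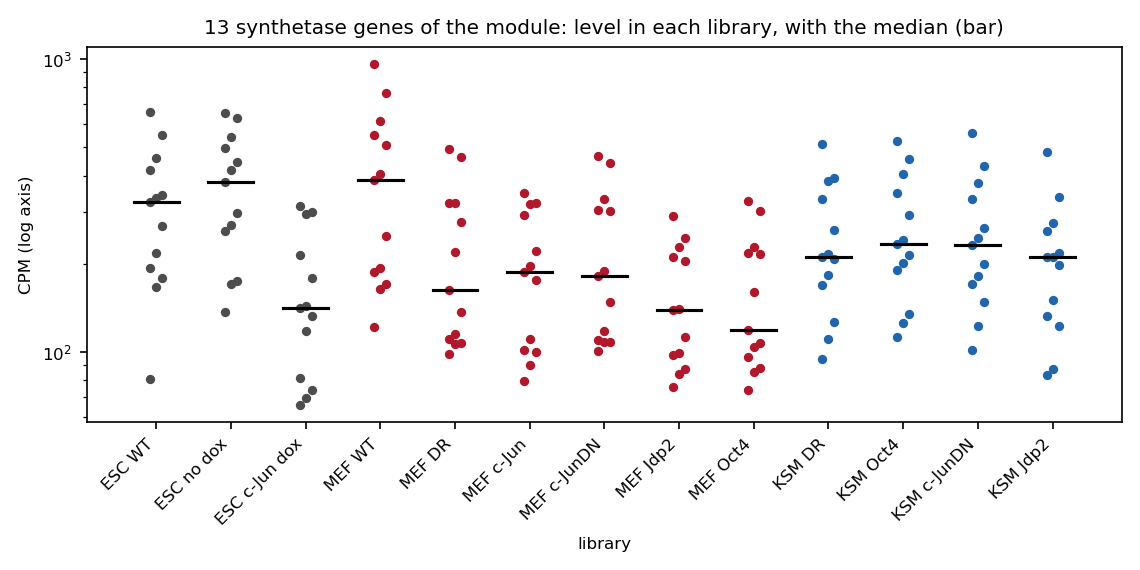
Level of the 13 synthetase genes of the module (CPM, log axis) in each library, 1 point a gene, with the median as a bar; ESC in grey, MEF in red and KSM in blue. The medians are 325 and 381 CPM in the WT and uninduced ESC libraries against 141 CPM with doxycycline, and 387 CPM in WT MEF against 119 to 187 CPM in the other 5 MEF libraries, with the lowest 2 in the Jdp2 and Oct4 libraries.

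With Oct4 in fibroblasts, 8 of 34 measured members also fell and none rose, where 10.1% of 11050 genes were lower and 11.5% higher. The median was -0.45, against 0.01. The regulators were the role with the lowest median (-1.23), and all 6 were below 0 with intervals that left out no change. Trib3 went from 69.6 CPM with DR to 5.49 CPM (12.7-fold lower, interval 6.88 to 25.98), Atf5 from 421 to 91.3 CPM (4.61-fold lower, interval 3.92 to 5.43) and Ddit3 from 101 to 34.4 CPM (2.94-fold lower, interval 2.23 to 3.91). Atf4 was at 141 CPM, its lowest level of the 13 libraries (log2 -0.93 from DR). With Jdp2, Trib3 was at 8.49 CPM and Atf4 at 371 CPM.

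Slc7a11 fell from 18.4 to 2.495 CPM (7.36-fold lower, interval 2.89 to 23.97), and Slc1a5 from 52.7 to 19.96 CPM (2.64-fold lower, interval 1.82 to 3.895). Slc7a5, in contrast to its level with Jdp2, was at 163 CPM (log2 -0.24). The proline genes fell again, Pycr1 to 6.49 CPM (3.28-fold lower, interval 1.74 to 6.64) and Aldh18a1 to 62.9 CPM (2.76-fold lower, interval 2.25 to 3.41). Cth was at 15.96 and 18.5 CPM (log2 0.20) and Asns at 120.4 and 83.3 CPM (-0.53), neither past the threshold.

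None of the 5 serine and one-carbon genes passed 2-fold, with Psph, the phosphatase that releases serine, at log2 0.85 and Phgdh at 0.49. Of the synthetases, Eprs fell from 463 to 216 CPM (2.149-fold lower, interval 1.92 to 2.41), and 11 of 13 were below 0 (median -0.45), against 6 of 10 other cytosolic genes (median -0.01). Of 20 further ATF4-linked genes measured, 7 were lower and none higher, led by the lipoprotein receptor gene Vldlr (-2.69), Cebpb (-2.60) and the glycine transporter gene Slc6a9 (-1.87). On the authors' TPM scale 8 members were again lower, of which 6 were shared, where 10.2% of all measured genes were lower and 12.8% higher. Pycr1 and Slc1a5 were lost, and Atf4 and Chac1 passed 2-fold. Against WT MEF 17 were lower and none higher (median -1.03), where 14.8% of all measured genes were lower and 14.4% higher, but Ddit3 was above it (log2 0.51).

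Other cells' markers moved with the Oct4 library. All 7 measured macrophage markers of 8 were higher, with a sum of 134 CPM against 22.2 CPM with DR and none at 0. Of 8 fibroblast markers 6 were lower, with a sum of 10691 CPM against 30098 CPM and none at 0. Thy1 was the 1 that was higher, at 392 CPM with DR and 1020 CPM with Oct4. Both measured endothelial markers of 5, Kdr and Tek, were higher, with a sum of 29.9 CPM against 6.77 CPM and 3 at 0 with Oct4. Their part in the members' values was not tested.

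**Figure D4:**
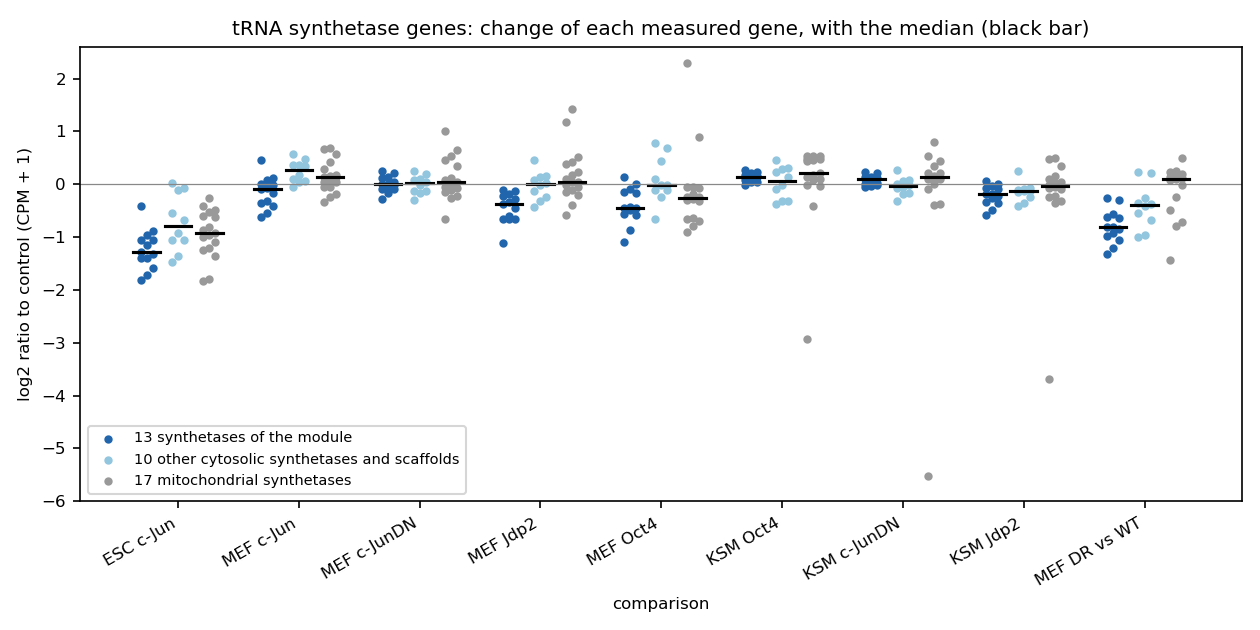
Log2 ratio (CPM plus 1) of each measured synthetase gene in 9 comparisons, in dark blue the 13 of the module, in light blue 10 other cytosolic synthetases and scaffolds, in grey 17 mitochondrial synthetases, with medians as black bars. The module's 13 genes lie wholly below 0 with c-Jun in ESC, with Jdp2 in MEF and in DR against WT MEF, and the grey points far below 0 in the KSM comparisons are Lars2.

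The control vector itself differed from WT MEF, and the MEF comparisons read differently against each. In DR, 9 of 34 measured members were lower and 1 higher than in WT MEF, where 10.4% of 10964 genes were lower and 9.56% higher, with a median of -0.66 against -0.11. Ddit3 rose from 23.95 to 101 CPM (4.22-fold higher, interval 3.55 to 5.003). Slc7a1 fell from 294 to 73.99 CPM (3.97-fold lower, interval 3.38 to 4.699), Slc7a11 from 52.6 to 18.4 CPM (2.86-fold lower, interval 2.07 to 4.07) and Lars from 405 to 162 CPM (2.49-fold lower, interval 2.23 to 2.79). Psat1 (-1.25), Iars (-1.21), Asns (-1.19), Eprs (-1.05) and Slc7a5 (-1.03) fell too, and Phgdh was the ninth (-1.005). Phgdh, Slc7a5 and Eprs passed on the main scale and not on the authors' TPM scale.

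WT MEF had the highest MEF level of all 13 synthetases and of 23 of the 35 members. Aars, for instance, was at 767 CPM in WT MEF, 493 CPM with DR, 320.4 CPM with c-Jun, 442 CPM with c-JunDN, 229 CPM with Jdp2 and 328 CPM with Oct4. Nars, one of the synthetases called in none of the 8 factor comparisons, was at 551, 277, 293, 304, 244 and 304 CPM in the same order. The WT level stood above the other 5 for both genes. How many of all genes had their highest MEF level in WT was not counted. In DR against WT MEF, 6108 of 10964 measured genes were below 0 and 4856 above. In DR all 13 synthetases were below WT (median -0.81), against a median of -0.39 over the 10 other cytosolic genes and 0.10 over 15 measured mitochondrial ones. The WT library was also the deepest, and markers of other cells differed with it. Of 8 macrophage markers, 3 were measured and all 3 were lower in DR, with a sum of 22.2 CPM against 34.7 CPM in WT MEF and none at 0. The endothelial gene Kdr, the 1 measured of 5, was lower too, with sums of 6.77 and 10.2 CPM, Pecam1 and Cdh5 being at 0 in DR. Of 8 fibroblast markers 3 were higher and 2 lower, with a sum of 30098 CPM against 53128 CPM. The part of these lists was not tested. Depth, transduction and the vector cannot be told apart here. In ESC, the uninduced Tet-On line against WT ESC called none of the 35 members in either direction, where 18.3% of 10895 genes were lower and 6.17% higher (median 0.19 against -0.18). The largest differences were in Asns, at 726 CPM in WT and 421 CPM in the line (log2 -0.79), and Wars (log2 0.76). Of 8 fibroblast markers, 6 were measured and all 6 were lower in the line, with sums of 24.8 CPM in the line and 1199.6 CPM in WT ESC. Their part in the members' values was not tested.

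The KSM cells were then set against fibroblasts. Against MEF with DR, KSM with DR had 6 of 35 members higher and 6 lower, where 18.1% of 11342 genes were higher and 20.1% lower, and the median was 0.06 against 0.04. The share called was thus no larger than the background. All 6 regulators were below 0, and 4 fell. Trib3 went from 69.6 to 2.58 CPM (27.02-fold lower, interval 12.8 to 68.4), Ddit3 from 101 to 8.47 CPM (11.9-fold lower, interval 7.74 to 19.2) and Atf5 from 421 to 37.5 CPM (11.2-fold lower, interval 9.12 to 13.9). Chac1 fell to 1.84 CPM (log2 -3.06), while Atf4 was at 269 and 180.4 CPM (-0.58).

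Of the 6 transporters, 3 rose. Slc7a11 went from 18.4 CPM in MEF to 161 CPM in KSM (8.75-fold higher, interval 6.28 to 12.5), Slc7a1 from 73.99 to 329 CPM (4.45-fold higher, interval 3.74 to 5.32) and Slc1a5 from 52.7 to 174 CPM (3.296-fold higher, interval 2.67 to 4.098). Among the enzymes Cbs rose from 1.45 CPM, 3 counts, to 13.99 CPM (9.64-fold higher, interval 3.06 to 48.8), Shmt2 rose (log2 1.18) and Pycr1 fell (-2.14). Asns was at 120.4 and 95.7 CPM (-0.33).

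Of the module's synthetases Vars rose from 111 to 392 CPM (3.54-fold higher, interval 3.07 to 4.11) and Aars fell from 493 to 211 CPM (2.34-fold lower, interval 2.11 to 2.59), with a median of 0.14 over the 13. The 10 other cytosolic genes had a median of 1.23 and 7 were higher, and the difference between the lists was not tested. Fibroblast markers were lower for 8 of 8, their sum going from 30098 to 1174 CPM with none at 0, and ESC markers summed to 6.77 and 592 CPM, nearly all of it Sox2, one of the introduced genes (583 CPM), with Utf1 at 0. Their part in these values was not tested.

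**Figure D5:**
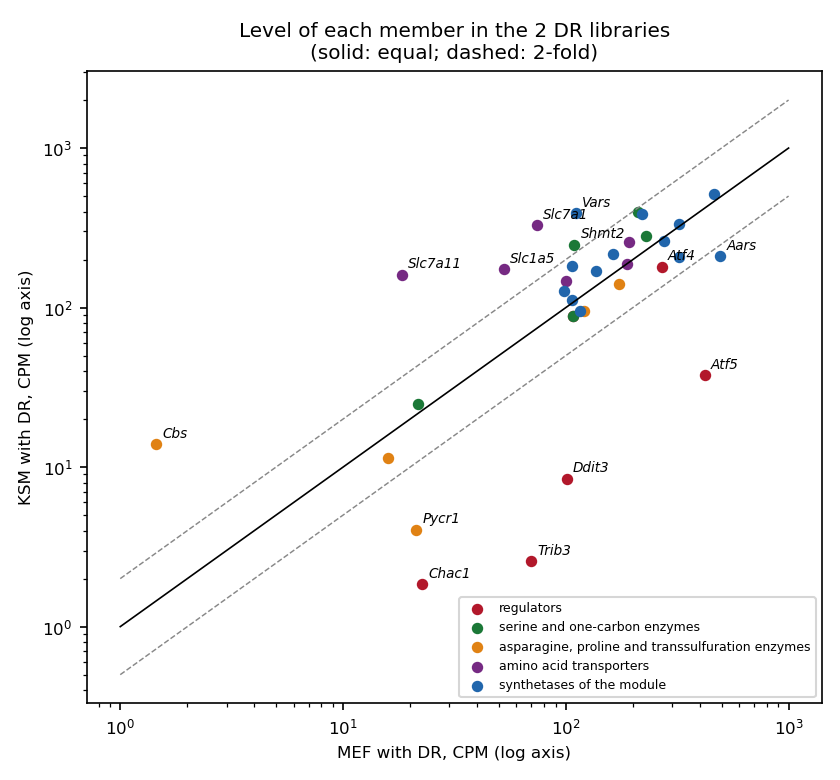
Level of each member in MEF with DR (horizontal, CPM, log axis) against KSM with DR (vertical, CPM, log axis), 1 point a gene, coloured by role, with lines of equality and of 2-fold. Red regulator points Trib3, Chac1, Ddit3 and Atf5 lie below the lower dashed line, the purple transporters Slc7a11, Slc7a1 and Slc1a5 above the upper one, and most blue synthetases near equality.

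With Oct4 added to KSM, few members changed. Of 32 measured, 1 was higher and 1 lower, where 4.65% of 10750 genes were higher and 6.67% lower (median 0.15 against 0.07). Trib3, Chac1 and Pycr1 were under 5 CPM in all 4 KSM libraries and were not measured. Cth rose from 11.4 to 35.6 CPM (3.12-fold higher, interval 2.095 to 4.78) and Slc7a11 fell from 161 to 69.02 CPM (2.33-fold lower, interval 1.99 to 2.73). Psph, at 25.03 and 50.7 CPM (log2 0.99), and Cbs, at 13.99 and 6.68 CPM (-0.96), were just under the line.

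All 5 serine and one-carbon genes and 10 of the 13 synthetases had their highest KSM level with Oct4, by amounts under 2-fold (medians 0.40 and 0.15 from KSM with DR). The same was not counted over all genes, of which 6167 of 10750 measured were above their level in KSM with DR. ESC markers summed to 2416 CPM with Oct4 and 592 CPM with DR, of which Pou5f1 made up 1711 CPM. Atf4 was at 249.9 CPM, Ddit3 at 6.68 CPM and Asns at 136 CPM (log2 0.47, -0.30 and 0.51).

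With c-JunDN in KSM, none of 32 measured members was called, where 1.81% of 10715 genes were higher and 1.62% lower (median 0.02 against 0.05). The largest differences were in Cbs (13.99 and 25.1 CPM, log2 0.80), Ddit3 (8.47 and 5.34 CPM, -0.58), Atf5 (0.34) and Slc7a1 (0.25). Atf4 and Asns were at 187 and 92.1 CPM. Of 8 fibroblast markers 3 were higher and none lower, with a sum of 1504 CPM against 1174 CPM in KSM with DR. Their part in the members' values was not tested. As in MEF without the reprogramming factors, c-JunDN had the fewest calls of the factors compared in the same cells, but that difference was not tested. Jun was at 352 CPM with c-JunDN in KSM, against 67.0 CPM in KSM with DR, and at 3968 CPM with c-JunDN in MEF. The 2 c-JunDN comparisons thus differ in the level of the factor as well as in the cells. Over all measured genes, c-JunDN in KSM had 194 higher and 174 lower, against 288 and 141 with Jdp2 and 500 and 717 with Oct4.

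With Jdp2 in KSM, the members leaned lower, mostly without passing the threshold. Of 32 measured, 1 was higher and 1 lower, where 2.68% of 10763 genes were higher and 1.31% lower. The median was -0.25 against -0.03, and 28 of 32 were below 0, against 5856 of 10763 over all genes. Among the 28 were 12 of 13 synthetases (median -0.18) and 6 of 6 transporters (median -0.40). Slc7a11 was at 47.9 CPM, against 161 CPM with DR (3.36-fold lower, interval 2.77 to 4.08), its lowest KSM level. Cbs was at 33.1 CPM, against 13.99 CPM (2.37-fold higher, interval 1.61 to 3.54), its highest.

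Cth (-0.62), Asns (63.1 CPM, -0.59) and Slc7a5 (171 CPM, -0.59) came next and did not pass. Atf4 and Ddit3 were at 166 and 6.08 CPM (log2 -0.12 and -0.42). Trib3 was at 0.338 CPM, 1 count, against 2.58 CPM and was not measured. Jdp2 itself was at 366 CPM in KSM and 7226 CPM in MEF, so the 2 Jdp2 comparisons differ in the level of the factor as well as in the cells. Of 8 fibroblast markers 1 was higher and 1 lower with Jdp2 in KSM (median 0.75), with a sum of 1894 CPM against 1174 CPM with DR. Their part in the members' values was not tested.

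The 2 WT cell types were compared last. Of 35 members, 7 were higher and 4 lower in WT MEF than in WT ESC, where 24.3% of 11693 genes were higher and 29.4% lower (median 0.32 against -0.19), so that the members' shares lay below the background. Of the regulators, 4 rose. Atf5 was at 17.02 CPM in ESC and 223 CPM in MEF (log2 3.64), and Chac1 (1.58), Trib3 (1.47) and Ddit3 (1.23) were higher too, while Atf4 was at 247 and 237 CPM. Slc1a4 (1.40), Aldh18a1 (1.32) and Phgdh (1.05) completed the 7.

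The genes lower in MEF were Cbs, at 44.8 CPM in ESC and 0.427 CPM in MEF (log2 -5.00), Cth (-2.32), Slc1a5 (-2.03) and Asns (-1.39). Both enzymes that make cysteine from homocysteine were thus among the 4. None of the module's 13 synthetases passed 2-fold (median 0.32), whereas the 10 other cytosolic and 17 mitochondrial ones had medians of -0.79 and -0.89. The difference between the lists was not tested.

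Counts of 7 members carry a further uncertainty. Atf5, Ddit3, Psph, Shmt2, Aars, Mars and Wars overlap the span of another protein-coding gene in the RefSeq annotation of GRCm38.p6, Ddit3 and Mars each other. Whether the counting used strand is not given in the sources used here.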

How the data were processed

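RNA of 13 samples was sequenced after Trizol extraction with the TruSeq RNA kit, per the labels' protocols. The deposited tables hold an expected count per gene and library, made by the authors with RSEM 1.1.21 on mm9, per the submitters' processing notes. For 12 libraries the deposited tables list RefSeq transcripts and give, beside the count, the fraction of transcripts per gene, which was multiplied here to the TPM scale. For the MEF Oct4 library the authors deposited counts and TPM per Ensembl gene. The aligner and the use of strand for RNA are not given in the sources used here. The Oct4 library's 27729 Ensembl IDs gave 27247 symbols, of which 19677 were shared with the 20325 names of the other 12 libraries, 1713 of them through a synonym, and these held 96.98% of its counts. Its scale was joined to the others through the DR library on the shared genes.

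Expected counts were rounded to whole numbers and scaled with TMM (edgeR 4.0.16 in R 4.3.3; factors 0.766 to 1.129). Ratios used a pseudocount of 1 CPM, a minimum of 5 CPM in 1 of the 2 libraries and a call at 2-fold. Binomial intervals came from scipy 1.17.1 in Python 3.11.15 with pandas 2.3.3, and figures from matplotlib 3.10.9. The ratio and interval code was tested on simulated data. With 1 library per group no model was fitted. Alternatives were DESeq2 1.42.0 size factors, the authors' TPM scale, a pseudocount of 0.25, no minimum, a 1.5-fold call and the WT library as control.

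All 35 members were accounted for. In each comparison the members named are those past 2-fold, up to the 8 highest and 8 lowest, or the 4 with the largest change where fewer than 4 passed, together with Atf4, Ddit3 and Asns, and up to 3 genes of each other list; some items under this rule are not reported here. Values given outside this rule (Slc7a5, Slc3a2 and others beside a partner gene, and Lars2) were picked with their values in view. The members and lists were chosen with earlier results of these data known. The ChIP peak lists are on mm9 and the gene annotation given is GRCm38.p6, so the planned count of peaks near members was not made and the peaks are not used here.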

Additional observations from a re-analysis of the deposited data

Results flagged for a closer look

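Cth, the enzyme that completes the route from homocysteine to cysteine, moved in opposite directions with c-Jun in the 2 cell types. It fell by 1.36 on the log2 scale in ESC given doxycycline (122.9 to 47.4 CPM, against 140.7 CPM in WT ESC) and rose by 1.04 in MEF (16.0 to 34.0 CPM). Each side is 1 library against 1, and the difference between the cell types was not tested. The rise in MEF was not called against WT MEF, where Cth stood at 27.4 CPM.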

How the results depend on the processing

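No paired analysis was possible because each group has 1 library and the labels give no replicate numbers, and for the same reason no replicate could be left out. The peak window was not varied, since the peaks were not placed. Counts of members called are given below as higher or lower. Most counts and medians that stayed near those of the main settings are left out, so a direction that is not named can still hold calls. On the authors' TPM scale, c-Jun in ESC gave 2 higher and 14 lower (median -0.86), and WT MEF against WT ESC had a median of 0.45 (0.45 with size factors). With WT as the control, c-Jun in ESC gave 1 higher, c-Jun in MEF 0 higher and 10 lower (median -0.80), c-JunDN in MEF 4 higher and 6 lower (-0.65), Jdp2 in MEF 2 higher and 23 lower (-1.28) and Oct4 in MEF 17 lower (-1.03). Ddit3, below DR in all 4 MEF libraries, was then above its control, at 0.45 with c-Jun, 0.51 with Oct4, 1.31 with Jdp2 and 1.62 with c-JunDN, the last 2 past 2-fold. Size factors gave 1 higher with Jdp2 in MEF, Cbs, where 675 of 11155 measured genes were higher. They gave 2 lower with Oct4 in KSM, where 781 of 10681 were lower. A pseudocount of 0.25 gave 2 higher and 2 lower with Oct4 in KSM, where 548 and 772 of 10750 measured genes were. Without the minimum, c-Jun in MEF had 2 higher, Jdp2 in MEF 1 higher, again Cbs, and Jdp2 in KSM 2 lower. Over all 20325 genes the same counts were 1221, 996 and 266.

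At a 1.5-fold call, c-Jun in ESC had 2 higher and 28 lower, where 3304 and 3591 of 11133 measured genes were. The brackets that follow give the same over all measured genes. In MEF, c-Jun had 7 lower (1927 of 11114) and c-JunDN 4 higher (908 of 11030). Jdp2 in MEF had 1 higher and 17 lower (1409 and 1490 of 11080). Oct4 in MEF had 1 higher and 11 lower (2293 and 2139 of 11050). Oct4 in KSM had 2 higher and 3 lower (1260 and 1362 of 10750). In KSM, c-JunDN had 1 higher (701 of 10715) and Jdp2 4 lower (520 of 10763). DR against WT MEF had 2 higher and 19 lower (2141 and 2788 of 10964). The uninduced line against WT ESC had 3 higher and 1 lower (1541 and 3427 of 10895). WT MEF against WT ESC had 11 higher and 8 lower (3690 and 4666 of 11693). The cause of these shifts was not tested. Outside the WT libraries, a count of 3 stood for 0.835 to 1.5 CPM, which limits Cbs, Chac1, Pycr1 and Trib3 where they were low.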

Other observations

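One mitochondrial synthetase gene stood apart from its list in the KSM libraries. Lars2, the mitochondrial leucyl-tRNA synthetase gene, was at 10895 CPM in KSM with DR, 1421 CPM with Oct4, 845 CPM with Jdp2 and 237 CPM with c-JunDN. In the MEF and ESC libraries it lay between 192 and 819 CPM. It was singled out after its values were seen, and the cause was not tested.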
